A study of Homo sapiens with 3 samples.

Results

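CD86 and 7 further costimulatory or checkpoint ligands and receptors of antigen-presenting cells were followed through GSK-LSD1 treatment of THP-1 cells. The 8 members were the rows of the deposited count table named by the UniProt accessions of CD86 (P42081), CD80 (P33681), CD40 (P25942), ICOSLG (O75144), CD274 (Q9NZQ7), PDCD1LG2 (Q9BQ51), CD276 (Q5ZPR3) and TNFSF9 (P41273), of 213543 features in all. THP-1 (THP1 in the labels) is a human acute monocytic leukemia line that carries the MLL-AF9 fusion, and GSK-LSD1 is an inhibitor of the histone demethylase LSD1 (KDM1A). RNA-seq was performed on untreated cells (0 h) and on cells kept in 0.2 µM GSK-LSD1 for 8 h or 24 h, with 1 library per time point and no vehicle-treated library among the 3. The treatment was used to induce myeloid differentiation, and CD86 served as its marker. All 3 libraries came from this 1 cell line. No untreated library at 8 h or 24 h is among them, so GSK-LSD1 and elapsed time cannot be told apart.

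The libraries were shallow at 1475938, 1310912 and 1444011 counts at 0 h, 8 h and 24 h, so that 1 count stood for 0.652, 0.793 and 0.692 CPM (the count scaled to a common library size with TMM factors). With 1 library per time point no test between time points could be run. Every interval below is an exact 95% interval that covers counting error only, with each count taken as independent. The paper's methods name no molecular identifiers, so duplicate reads may be among the counts. The spread between cultures was not measured. A difference is called here where the ratio lay past 2-fold and its interval excluded 1, among the 9609 features that reached 10 counts in any library. Markers of the line were present at 0 h, with 617 counts for PTPRC (CD45), 655 for LYZ (lysozyme), 87 for ITGAM (CD11b) and 69 for SPI1 (PU.1), whereas CD14 and CD68 had no count at 0 h. Among 8 markers of T cells, B cells, erythroid cells, epithelium and fibroblasts, 6 were listed at 0 in every library and the list summed to 1, 4 and 3 counts.

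A row listed at 0 did not by itself show that a gene was silent. The accession rows of CD33 and CSF1R, both myeloid surface receptors, and of RELA and IKBKB, which most cells use, were listed at 0 in all 3 libraries. Of 3 rows named by CD33 transcripts, 1 held 67, 44 and 45 counts and the other 2 held none. That row is of a retained-intron transcript, and no coding transcript of CD33 had a row of its own. For the 8 members, 12 such transcript rows were found and held 1 count in all, at 0 h for CD276. Among the listed genes and members with 2 or more coding transcripts, 28 of 59 accession rows were at 0, against 1 of 6 with a single coding transcript. None of the coding transcripts of the members had a row of its own. TNFSF9 and PDCD1LG2 each have 1 annotated transcript, so their accession row had no other isoform to share reads with. CD86 has 7 coding transcripts among 9, and reads under a different accession of the gene were not counted here.

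T cells need a costimulatory signal beside antigen recognition to be activated. CD80 and CD86, the B7 ligands on antigen-presenting cells, supply it by binding CD28 and are held back by CTLA4, which binds both more tightly. Related B7 proteins engage other receptors, such as ICOS for ICOSLG or the inhibitory receptor PD-1 for CD274 (PD-L1) and PDCD1LG2 (PD-L2). TNFSF9 (4-1BBL) belongs to the TNF family and stimulates T cells through 4-1BB, and CD40 is the receptor by which T cells in turn activate antigen-presenting cells. CD86 is commonly present at a low level on resting monocytes and increases as they mature.

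The promoters of the 2 members with more than a few counts are shown first. CD86 lies on chromosome 3 (chr3:122055362-122121139, plus strand, GRCh38) and TNFSF9 on chromosome 19 (chr19:6531026-6535924, plus strand). RefSeq (GRCh38.p14) lists 2 starts for CD86. The 250 bases before each start are given 5′ to 3′, with capitals at matches on either strand to the core letters GAGGAA of PU.1, a myeloid transcription factor, or AATCNC of GFI1, a repressor that recruits LSD1.
CD86, chr3:122055112-122055361, plus strand, before the start of the reference transcript: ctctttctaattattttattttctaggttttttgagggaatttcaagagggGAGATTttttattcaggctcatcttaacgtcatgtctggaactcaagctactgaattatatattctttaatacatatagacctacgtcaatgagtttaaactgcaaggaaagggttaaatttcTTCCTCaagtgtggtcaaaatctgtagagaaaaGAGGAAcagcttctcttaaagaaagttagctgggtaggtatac
CD86, chr3:122077534-122077783, plus strand, before the downstream start: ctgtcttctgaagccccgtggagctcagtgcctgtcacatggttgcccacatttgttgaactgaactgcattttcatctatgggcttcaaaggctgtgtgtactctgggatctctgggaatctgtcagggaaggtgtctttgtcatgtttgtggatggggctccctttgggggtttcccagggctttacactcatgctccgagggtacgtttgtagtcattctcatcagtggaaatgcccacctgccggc
TNFSF9, chr19:6530776-6531025, plus strand: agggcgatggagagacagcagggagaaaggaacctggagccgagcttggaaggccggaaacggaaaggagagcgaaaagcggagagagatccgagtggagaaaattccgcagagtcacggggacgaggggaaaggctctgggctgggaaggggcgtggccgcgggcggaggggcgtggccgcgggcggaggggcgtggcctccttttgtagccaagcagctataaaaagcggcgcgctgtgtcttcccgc
The upstream CD86 window held 2 matches to the PU.1 letters, which began 76 and 43 bases before the start, and 1 match to the GFI1 letters 199 bases before it. The 2 PU.1 matches lie on opposite strands. The downstream CD86 window and the TNFSF9 window held neither. Matches also stood before members with few or no counts. The CD80 and CD274 windows each held 1 match to the GFI1 letters, and 1 of the CD276 windows held 1 match to the PU.1 letters. The ICOSLG window held neither. Of 35116 RefSeq promoters of this length, 23.6% held the PU.1 letters at least once, 3.49% held them at least 2 times, and 28.8% held the GFI1 letters. The AP-1 letters TGANTCA were in none of the 3 windows printed above and in 6.57% of all promoters. The upstream CD86 window is also poor in G and C, at 34% against 52% in the downstream window and 64.4% for TNFSF9. A match describes the letters and shows no binding, and the counts of a whole gene cannot tell the 2 CD86 starts apart.

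CD86 was close to undetected in untreated THP-1 cells and higher at both treated time points. Its row held 1 count at 0 h, 19 at 8 h and 37 at 24 h. In CPM this was 0.652 (0.0165 to 3.63), 15.1 (9.08 to 23.5) and 25.6 (18.0 to 35.3). The interval at 0 h lay below both treated intervals, while the intervals at 8 h and 24 h overlapped.

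The CD86 level at 8 h was 23.1-fold that at 0 h (3.68 to 961), or 4.53 on the log2 scale (1.88 to 9.91). At 24 h it was 39.3-fold that at 0 h (6.63 to 1593), or 5.30 on the log2 scale (2.73 to 10.64). The single count at 0 h sets the width of both intervals, so that the lower ends are better determined than the point values. Between 8 h and 24 h the CD86 level was 1.70-fold higher (0.952 to 3.13), and this interval included 1. Both ratios against 0 h were called higher, as were 339 features (3.53%) at 8 h and 485 features (5.05%) at 24 h, whereas 331 (3.44%) and 437 (4.55%) were called lower. From 8 h to 24 h CD86 was not called, against 145 features (1.51%) higher and 105 (1.09%) lower. In bulk RNA, more cells with CD86 and more CD86 RNA per cell cannot be told apart. CD86 reached 10 counts only in the treated libraries, so its entry among the features compared rested on its being higher there.

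The CD86 point ratio was above those of all other compared features with a ratio, 9580 at 8 h and 9605 at 24 h against 0 h. This order favours genes with very few counts at 0 h, and 7 compared features with no count at 0 h were set to 3 counts there, which lowers their ratio. Ordered by the lower end of the interval, 5 features at 8 h and 4 at 24 h stood above CD86. With a prior count of 2, CD86 was at 3.0 and 3.71 on the log2 scale and 2 features stood above it in each comparison. From 8 h to 24 h, 8.80% of compared features had a higher ratio than CD86. The plot of all compared features sets CD86 and TNFSF9 among the rest.

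**Figure D1:**
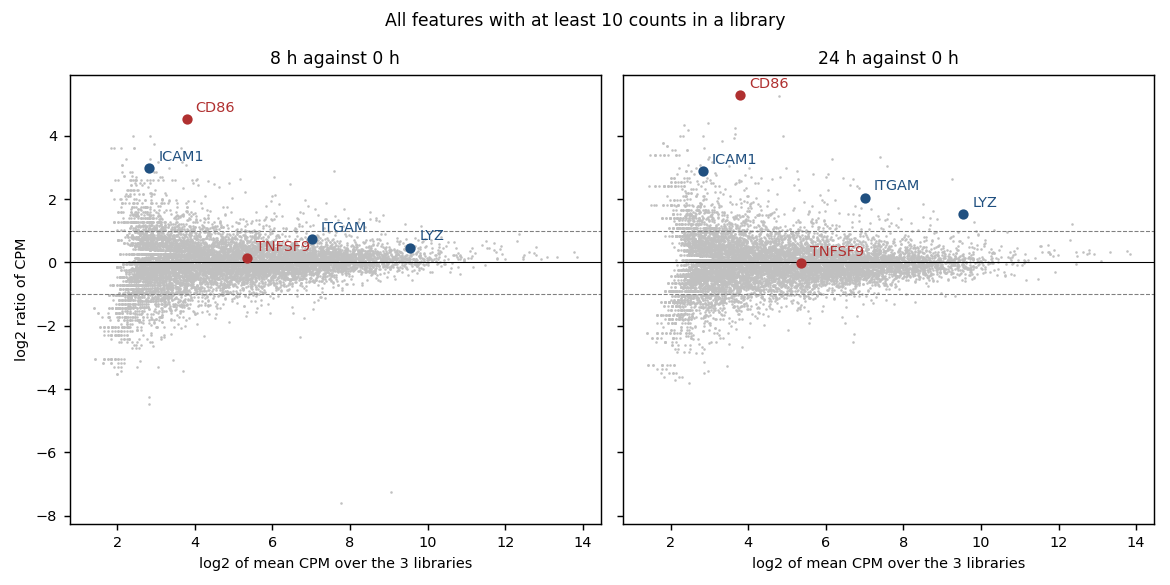
Log2 ratio of CPM against the log2 mean CPM over the 3 libraries for features that reached 10 counts in any library, at 8 h (left) and 24 h (right) against 0 h, with grey points for all features, red for the 2 members, blue for ICAM1, ITGAM and LYZ, and dashed lines at 2-fold. CD86 lies at 4.53 and 5.30, above the grey points, and TNFSF9 lies at 0.13 and -0.01.

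The row of TNFSF9, the ligand of 4-1BB, held the most counts of the member rows in each library and stayed near the same level. It held 61, 55 and 57 counts in time order. The levels were 39.8 CPM (30.4 to 51.1), 43.6 CPM (32.9 to 56.8) and 39.5 CPM (29.9 to 51.1), with overlapping intervals throughout. On the log2 scale the ratio was 0.13 at 8 h against 0 h (-0.42 to 0.68), -0.01 at 24 h against 0 h (-0.56 to 0.53) and -0.15 at 24 h against 8 h (-0.71 to 0.42). None was called, and counting error left no room for a 2-fold difference in either direction in these libraries. Over all compared features the median log2 ratio was 0.01, -0.04 and -0.04 in the same order.

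A ratio of both ligands within a library needs no scaling between libraries. Its level rests on a single accession row per gene, and CD86 has 7 coding transcripts against 1 for TNFSF9. For each TNFSF9 count there were 0.0164 counts of CD86 in untreated cells, 0.345 after 8 h and 0.649 after 24 h. Divided by transcript length (2.72 kb for CD86 and 1.634 kb for TNFSF9), the ratio was 0.00985, 0.208 and 0.390. CD86 relative to TNFSF9 was thus higher by 4.40 on the log2 scale at 8 h (1.63 to 9.80) and by 5.31 at 24 h (2.62 to 10.67), both against 0 h. Between 8 h and 24 h the difference was 0.91 (-0.12 to 1.96), which included 0. Among the counts of all 8 members, the share of CD86 was 1.45% (0.0367 to 7.81) at 0 h, 24.4% (15.3 to 35.4) at 8 h and 37.8% (28.2 to 48.1) at 24 h. The share of TNFSF9 was 88.4% (78.4 to 94.9), 70.5% (59.1 to 80.3) and 58.2% (47.8 to 68.1). The members together held 69, 78 and 98 counts.

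The other 6 members had at most 3 counts in any library, and none could be compared between time points. CD80, which shares its receptors with CD86, had no count in any library. A count of 0 allows up to 1.96 CPM at 0 h, 2.38 at 8 h and 2.08 at 24 h (3 counts), and the upper ends of the exact two-sided intervals drawn in the plot of members by library are 2.40, 2.93 and 2.55 CPM. Both limits hold for the accession row alone, since reads of CD80 under a different accession were not counted. At 24 h either limit for the CD80 row lay far under the 25.6 CPM of the CD86 row. Of the CD80 coding exons, 26.5% of bases are overlapped on the opposite strand by TIMMDC1, and whether counting used the strand is not given in the sources used here. CD40 also had no count in any library, with the same limits on its row.

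ICOSLG, the ligand of ICOS, had 2, 0 and 1 counts at the 3 times. Its row is uncertain, because 44.3% of the 50-base windows of its reference transcript also occur in other genes, of which nearly all (43.0% of the windows) occur in 1 gene, ENSG00000277117. CD274 had a single count, at 8 h (0.793 CPM, 0.0201 to 4.42). PDCD1LG2, which lies next to CD274 on chromosome 9, had 2, 3 and 1 counts, or 1.30, 2.38 and 0.692 CPM. CD276 (B7-H3), a B7 protein whose T cell receptor is not settled, had 3, 0 and 2 counts, or 1.96, 0 and 1.38 CPM. These counts are too few to order the 3 time points for any of them. No difference between time points was detectable for these 6 genes at these count totals.

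Summed, the 6 low members held 7, 4 and 4 counts, or 4.56 CPM (1.83 to 9.40), 3.17 CPM (0.865 to 8.13) and 2.77 CPM (0.754 to 7.09). The log2 ratio of the sum was -0.52 at 8 h (-2.74 to 1.45) and -0.72 at 24 h (-2.94 to 1.26) against 0 h. Both intervals included 0. Since these 6 rows were grouped by their low counts in all 3 libraries, the sum was bound to stay low. The plot of members by library shows the 8 rows side by side.

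**Figure D2:**
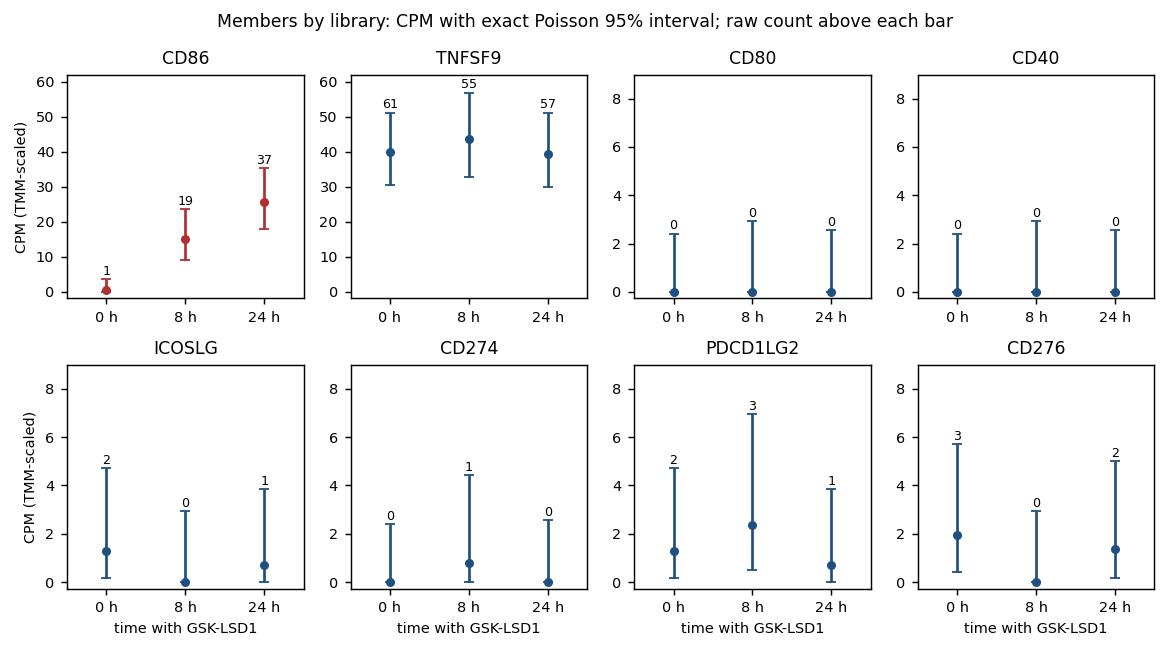
TMM-scaled CPM of each member at 0 h, 8 h and 24 h of GSK-LSD1, 1 library each, with exact Poisson 95% intervals and the raw count above each point. CD86 (red) goes from 1 to 19 and 37 counts, TNFSF9 stays between 55 and 61, and the other 6 rows, on a finer axis, hold 0 to 3.

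Levels of different genes were compared per kilobase of the reference transcript. Each level is that of a single accession row, and rows of genes with several coding transcripts may lack part of their reads. TNFSF9 has 1 coding transcript, whereas CD86 has 7, CD276 has 13 and ICOSLG has 10. The order below is thus one of rows and not of whole genes. At 0 h TNFSF9 stood alone at 24.3 CPM per kb (18.6 to 31.3). Next came CD276 at 0.593 (0.122 to 1.73), PDCD1LG2 at 0.536 (0.0649 to 1.94), CD86 at 0.240 (0.00607 to 1.34) and ICOSLG at 0.184 (0.0223 to 0.665) CPM per kb, whose intervals overlap so that their order is not determined. At 8 h TNFSF9 was at 26.7 CPM per kb (20.1 to 34.8) and CD86 was second at 5.54 (3.34 to 8.65). PDCD1LG2 followed at 0.979 CPM per kb (0.202 to 2.86) and CD274 at 0.218 (0.00553 to 1.22). At 24 h the order was TNFSF9 at 24.1 CPM per kb (18.3 to 31.3), CD86 at 9.42 (6.63 to 13.0), CD276 at 0.420 (0.0509 to 1.52), PDCD1LG2 at 0.285 (0.00721 to 1.59) and ICOSLG at 0.0978 (0.00248 to 0.545). At both treated times the CD86 interval overlapped neither that of TNFSF9 above it nor those of the members below it, and the members below CD86 could not be ordered among themselves. Among features with a count in the 24 h library, 87.9% had a lower count than CD86 and 90.3% a lower count than TNFSF9.

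**Figure D3:**
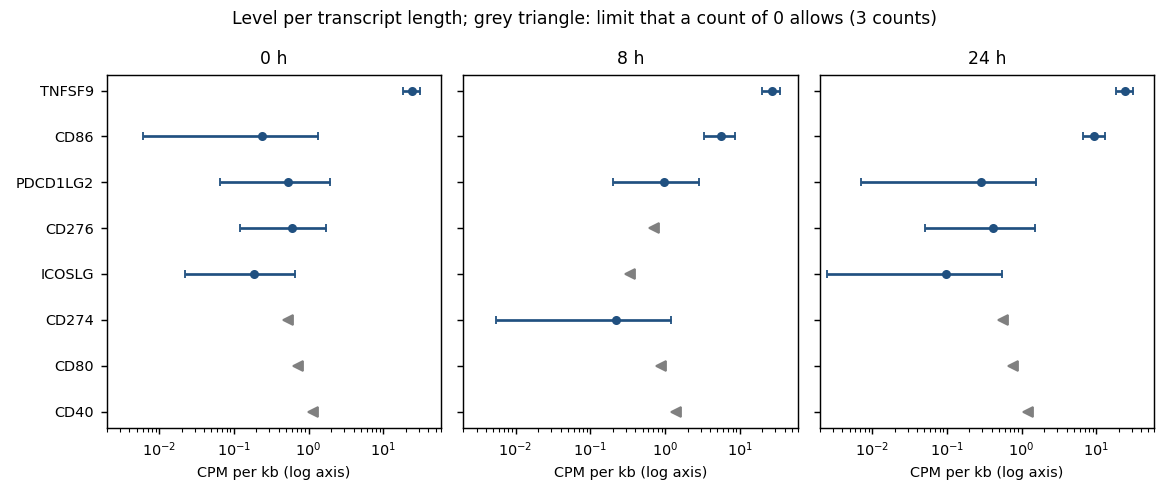
Level of each member in CPM per kb of the reference transcript on a log axis at 0 h, 8 h and 24 h, with exact Poisson 95% intervals and, for rows with no count, a grey triangle at the limit that 3 counts allow. TNFSF9 stays near 24.3 to 26.7, while CD86 moves from 0.240, among the low members, to 5.54 and 9.42.

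The T cell partners of the members, which are receptors apart from CD40LG, the ligand of CD40, were nearly without counts. CD28, CTLA4, ICOS, PDCD1 and CD40LG, 5 of the 6, were listed at 0 in each library. TNFRSF9 (4-1BB), the receptor of TNFSF9, had 0, 2 and 6 counts and stayed under the minimum of 10.

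Of 14 other costimulatory, checkpoint and adhesion ligands, 5 had 10 counts in a library and 1 of these was called, ICAM1. Over all compared features, 3.53% were called higher at 8 h and 5.05% at 24 h against 0 h. ICAM1, the adhesion ligand of the integrin LFA-1, had 2 counts in untreated cells and 13 and 14 at 8 h and 24 h. Its log2 ratio was 2.98 (0.84 to 6.17) at 8 h and 2.89 (0.77 to 6.07) at 24 h, both against 0 h, and -0.09 (-1.29 to 1.12) between the treated times. Like CD86, it reached 10 counts only in the treated libraries.

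VSIR (VISTA), an inhibitory B7 relative, was counted well, with 102, 128 and 152 counts. Its log2 ratio of 0.61 (0.22 to 1.0) at 8 h and 0.66 (0.29 to 1.04) at 24 h excluded 0 but lay under 2-fold. TNFSF14 (LIGHT) had 114, 78 and 98 counts and NECTIN2, a ligand of DNAM-1 and TIGIT, had 85, 75 and 109. CD70, the ligand of CD27, had 85, 63 and 54 counts, with a log2 ratio of -0.57 (-1.09 to -0.06) at 24 h against 0 h, but this row held only part of the gene. Another CD70 coding transcript, picked out after its values were seen, had its own row with 68, 86 and 77 counts. In this list TNFSF18, TNFRSF14, VTCN1 and PVR were listed at 0, and the median log2 ratio of the 5 compared genes was 0.10 at 8 h and 0.45 at 24 h against 0 h.

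Downstream of CD40, none of 4 compared genes among 13 adaptors, kinases and NF-kB subunits was called. With 5.05% of all compared features called higher and 4.55% lower at 24 h against 0 h, no call among 4 genes says little. TRAF6, an adaptor ligase, had 167, 140 and 136 counts, with a log2 ratio of -0.21 (-0.55 to 0.13) at 24 h against 0 h. CHUK, the IKK-alpha kinase, had 166, 131 and 116 counts, with -0.43 (-0.79 to -0.08) in the same comparison, an interval below 0. TRAF2, which binds CD40 directly, had 126, 72 and 101 counts, with a log2 ratio of -0.52 (-0.96 to -0.09) at 8 h and -0.23 (-0.62 to 0.16) at 24 h. TRAF1, an adaptor that pairs with TRAF2, had 13, 6 and 6 counts and -1.03 (-2.71 to 0.47) at 24 h. The median log2 ratio of the 4 genes was -0.29 at 8 h and -0.33 at 24 h against 0 h. The accession rows of TRAF3, TRAF5, NFKB2, RELA, RELB, IKBKB and IKBKG were listed at 0, so this pathway could be read only in part. Rows named by transcripts held 45, 35 and 37 counts for IKBKB and at most 10 in a library for each of the others.

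Of 4 genes that set how long CD86 or CD274 stays at the cell surface, 2 were compared and neither was called. Most compared features were not called either, with 5.05% higher and 4.55% lower at 24 h against 0 h. CMTM6, which protects CD274 from degradation, was well counted, with 662, 681 and 858 counts. Its log2 ratio was 0.46 (0.31 to 0.61) at 24 h against 0 h. MARCHF8, a ubiquitin ligase that can remove CD86 from the surface, had 30, 34 and 47 counts. Its log2 ratio in the same comparison was 0.73 (0.04 to 1.45). MARCHF1, its relative in antigen-presenting cells, had 0, 0 and 2 counts. CMTM4 had 3, 4 and 6 counts in its accession row, whereas the row of a retained-intron transcript of this gene held 192, 136 and 141.

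**Figure D4:**
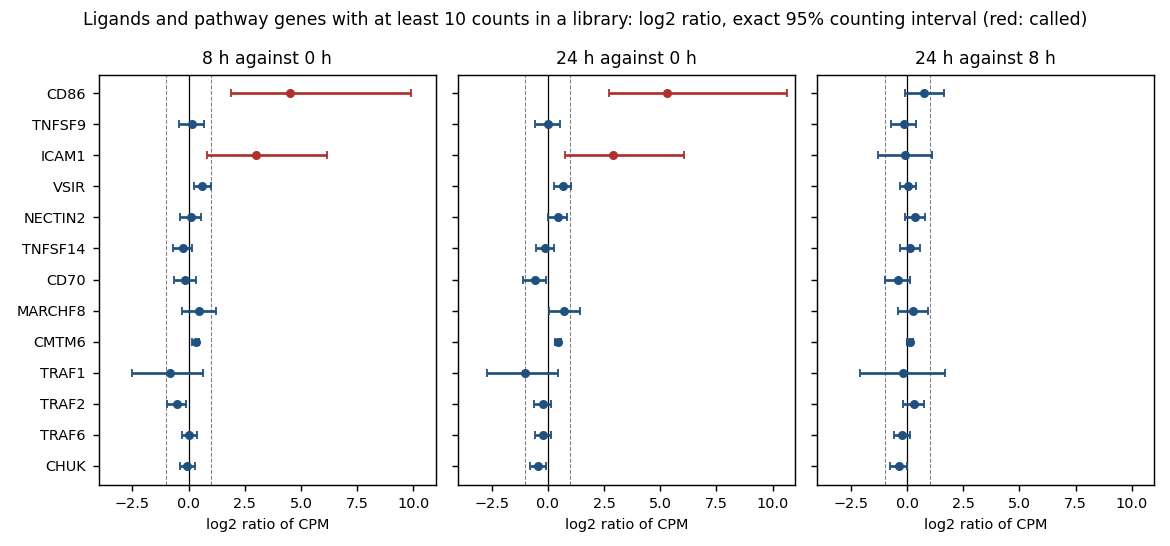
Log2 ratio of CPM with exact 95% counting intervals for the 2 members and the pathway genes that reached 10 counts, at 8 h against 0 h, 24 h against 0 h and 24 h against 8 h, with dashed lines at 2-fold and called ratios in red. CD86 and ICAM1 are called in the first 2 panels, and none is called in the third.

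MHC class II, which presents the antigen that costimulation accompanies, was almost uncounted in the accession rows used. Reads of its genes under a different accession were not counted. HLA-DRA, HLA-DMB and the class II activator CIITA were listed at 0, CD74 (the invariant chain) had 0, 3 and 2 counts, and the other 2 of 6 genes had no row under the accession used. Of 4 compared monocytic markers, 2 were called higher at 24 h against 0 h and 2 against 8 h. Among all compared features the shares called higher were 5.05% and 1.51%. ITGAM had 87, 120 and 339 counts, with a log2 ratio of 2.05 (1.71 to 2.41) at 24 h against 0 h and 1.30 (1.0 to 1.61) at 24 h against 8 h, and both were called. LYZ had 655, 747 and 1773 counts, with log2 ratios of 1.52 (1.39 to 1.65) and 1.05, also called. The other 2 compared markers were not called. SPI1 had 69, 87 and 102 counts, with a log2 ratio of 0.65 (0.20 to 1.11) at 24 h against 0 h. PTPRC had 617, 522 and 521 counts, with -0.16 (-0.33 to 0.01) at 24 h against 0 h and -0.20 (-0.38 to -0.02) at 24 h against 8 h. CD14, the endotoxin co-receptor, had 0, 5 and 6 counts, and CD68, a lysosomal protein of phagocytes, had 0, 2 and 2. The 8 monocytic markers summed to 1428, 1483 and 2743 counts, 2 of them (CD33 and CSF1R) at 0. In rows of retained-intron transcripts, CD33 had 67, 44 and 45 counts and CSF1R 9, 3 and 3. These raw counts were fewer at both treated times, but no ratio was formed and no coding transcript is among them. The part of these markers in the CD86 difference was not tested.

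Among the 13 listed genes with at least 50 counts in a library, the pattern nearest to CD86 was that of ITGAM, then LYZ and VSIR. Likeness was the Euclidean distance between centred profiles of log2 CPM with a prior count of 2 over the 3 libraries, at 1.66, 1.94 and 2.27. Without a prior count the distances were 2.90, 3.20 and 3.53, in the same order. ITGAM ranked 42 among all 4218 features with such counts. With 3 points per profile this is a description only, and the timing differed, since most of the CD86 difference was present at 8 h and most of that of ITGAM and LYZ between 8 h and 24 h.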

How the data were processed

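RNA-seq was made from 500 ng of total RNA per library with ribosomal RNA removal (KAPA RNA HyperPrep with RiboErase). The authors processed reads with Seq2science against hg38 and deposited raw, unscaled read counts for each feature. The submitters' processing notes also name fastp and STAR. How reads were counted (tool, annotation, strand, shared reads) is not given in the sources used here. All 3 count columns were matched to samples by name. Of the 213543 features, 73321 are named by protein accessions and 140222 by transcripts, and the table pairs neither with gene names. Member names came with the accessions, and the names of the 59 other listed genes came from general knowledge of UniProt.

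Libraries were scaled by TMM (edgeR 4.0.16, R 4.3.3) over all features, with factors of 1.04, 0.961 and 1.00 at 0 h, 8 h and 24 h. Levels are CPM with exact Poisson 95% intervals, per kilobase of the MANE Select transcript (GENCODE v44) where genes are compared. Log2 ratios used no prior count and have exact Clopper-Pearson intervals of the binomial share of both counts. A 0 was set to 3 counts, and no ratio was formed where both counts were at or under 3. Shares have exact binomial intervals. The planned count model needs a spread between replicates and could not be fitted with 1 library per time point, so no p-value is given. RefSeq promoters (GRCh38.p14) covered 6 of the 8 members, without CD40 and PDCD1LG2. Likeness to CD86 used log2 CPM with a prior count of 2 and was ranked over features that reached 50 counts. The rule named the members, in each other list the called genes and the 2 with the most counts, the 3 listed genes nearest to CD86 and the 2 nearest accessions of all. Other names (CD70, NECTIN2, TRAF1, TRAF2, MARCHF1, CMTM4, SPI1, CD14, CD68 and genes listed at 0) were chosen after their values were seen. The members and lists were chosen with earlier results of these data known. Alternatives were size factors of DESeq2 1.42.0, scaling by totals, a prior count, added transcript rows and other filters, folds and confidence levels. Totals were taken over all features, or without the 24 mitochondrial rows named by transcripts. TMM over features that reached 10 counts and likeness without a prior count were added after seeing the data. The remaining steps used Python 3.11.15 with scipy 1.17.1.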

Additional observations from a re-analysis of the deposited data

How the results depend on the processing

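The CD86 log2 ratio lay between 3.0 and 4.53 at 8 h and between 3.71 and 5.32 at 24 h against 0 h, and between 0.71 and 0.85 at 24 h against 8 h, over 6 alternatives of scaling, prior count and added transcript rows. The lowest values came from the prior count of 2. TNFSF9 stayed between 0.02 and 0.13, between -0.07 and 0.02, and between -0.15 and -0.06 in the same comparisons. Added transcript rows could not change these ratios, since those of CD86 held no count and TNFSF9 had none. The levels of CD86 and TNFSF9 stayed within their intervals with merged exon lengths and with total counts. With a minimum of 50 counts, 0 members were called at 8 h and 0 at 24 h against 0 h, since CD86 reaches 37 counts and was then not compared. No paired analysis was possible because each time point has 1 library, and leaving out a library leaves no comparison.

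The counts over all features depended on the filter, fold and interval. Called higher and lower were 339 and 331 features at 8 h, 485 and 437 at 24 h, and 145 and 105 between them. They became 98 and 64, 135 and 105, and 24 and 7 with at least 50 counts, 611 and 559, 774 and 767, and 218 and 213 at 1.5-fold, and 94 and 105, 163 and 130, and 48 and 32 at 4-fold. Without the interval they were 624 and 763, 744 and 786, and 528 and 364, and with a 99% interval 217 and 160, 313 and 226, and 60 and 39. With no filter, 168 features were lower from 8 h to 24 h. Total counts shifted the median log2 ratio of all compared features at 8 h by -0.11. The share of calls that were higher at 8 h was 50.6%, against 40.1% with DESeq2 size factors and 36.7% with total counts. It was 36.4% with total counts and the 24 mitochondrial rows named by transcripts left out. Any mitochondrial rows named by protein accessions stayed in. From 8 h to 24 h it was 58.0%, against 71.6% with DESeq2 size factors and 77.4% with at least 50 counts. The count totals limit the 6 low members, for which 3 counts are worth 1.96 to 2.38 CPM.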

Other observations

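Over all 4218 features that reached 50 counts in any library, not only the listed genes, the profiles nearest to CD86 belonged to the accessions Q9BXB4, with 53, 324 and 414 counts at 0 h, 8 h and 24 h, and Q07954, with 6, 28 and 91 counts. Their distances to the CD86 profile were 0.527 and 0.650 with a prior count of 2, against 1.66 for ITGAM. Without a prior count, chosen as an alternative after seeing the data, they were 1.64 and 1.45, so that the order of the 2 accessions turned, against 2.90 for ITGAM. The count table gives these accessions no gene name, and with 3 libraries the likeness is a description only.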
